A study of Homo sapiens with 6 samples.

Results

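A set of 31 genes of fatty acid synthesis, desaturation and storage was examined in human non-small cell lung cancer lines before and after selection for resistance to an inhibitor of the epidermal growth factor receptor (EGFR). The genes were taken by name from the 21463 genes of the deposited gene tables. All 31 were found. They cover 8 roles: 5 genes that make acetyl-CoA and malonyl-CoA, the synthase FASN, 5 desaturases, 5 elongases, 2 transcription factors, 4 acyl-CoA synthetases, 6 genes of glycerolipid assembly and droplet coating, and 3 genes of lipolysis, oxidation and transport. The last 3 (PNPLA2, CPT1A and FABP5) release, burn or carry fatty acids, so the set is wider than synthesis and storage.

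Cells build fatty acids from citrate that leaves the mitochondrion. The enzyme ACLY splits citrate to acetyl-CoA, the acetyl-CoA carboxylases turn acetyl-CoA into malonyl-CoA, and FASN joins these units into palmitate. Elongases lengthen the chain, desaturases put double bonds into it, acyl-CoA synthetases activate it, and the glycerolipid enzymes store it as triacylglycerol in droplets coated by PLIN2. SREBP-1, the product of SREBF1, is the main transcriptional activator of this chain of enzymes. Malonyl-CoA inhibits CPT1A, the gate through which long chains enter mitochondria to be oxidised, so synthesis and oxidation are usually opposed. Signalling from EGFR is known to raise SREBP-1 activity in several tumour types.

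The 6 libraries came from 3 lines, each as an untreated parental culture and a resistant subline. HCC827 and PC9 carry the EGFR mutation labelled E19Del, and their sublines HCC827-GR and PC9-GR were selected with gefitinib, a reversible EGFR inhibitor. H1975 carries L858R/T790M, and its subline H1975-OR was made with osimertinib, an irreversible inhibitor designed to reach the T790M form as well. Selection lasted 90 days at rising drug levels, and the drug concentration for half-maximal inhibition was 0.016 to 0.07 µM before and 4.288 to 12.485 µM after it. All cultures were grown in medium with serum, a source of outside fatty acids. Whether the drug was present when RNA was taken, and whether a subline was 1 clone, is not given in the sources used here.

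The libraries held 21222102 to 29366085 exon reads, and the 31 genes together held 0.137% to 0.225% of all TPM (a level per transcript length). HCC827-GR stood apart from its parent most: 2-fold or larger differences were found upward for 1078 genes and downward for 788, against 240 and 170 in PC9 and 175 and 320 in H1975. The share of mitochondrial reads was 3.32% in HCC827 and 6.62% in HCC827-GR, and 4.67% to 6.86% in the other 4 libraries. Each of the 5 epithelial markers was below its parental level in every subline, with EPCAM at 432 CPM in HCC827 and 10.6 in HCC827-GR, 745 and 732 in PC9, and 26.6 and 0.460 in H1975; CPM is a gene's exon reads scaled to the library size after TMM adjustment. The lung lineage factor NKX2-1 was at 140 and 121 CPM in HCC827, 8.45 and 4.56 in H1975, and at 2 and 6 reads in PC9. Other lung lineage markers were lower in HCC827-GR. NAPSA was at 289 CPM in HCC827 and 28.9 in HCC827-GR, and SFTPB had 91 and 1 reads. Both had at most 13 reads in the PC9 and H1975 libraries. The surfactant gene SFTPC had at most 1 read in any library. The adipocyte markers ADIPOQ and LEP had 0 reads in all 6 libraries, and the 5 adipocyte markers summed to 0.291 to 0.721 CPM in the parental and 0.112 to 0.427 CPM in the resistant libraries. Of the leukocyte markers, PTPRC stayed at or below 0.419 CPM and CD3E at or below 0.194. CD14 was at 9.25 and 11.6 CPM in H1975 and at most 1.09 in the HCC827 and PC9 libraries. CD68, a lysosomal protein, was at 80.6 and 175 CPM in HCC827, 51.1 and 124 in PC9 and 130 and 124 in H1975. The part of these shifts in the values below was not tested.

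No member passed the test of resistant against parental libraries over the 3 lines. The test was edgeR's quasi-likelihood test with the line as a block, run on the 13541 genes that passed a filter on low counts, among them 30 of the 31 members. It called 0 genes at an adjusted p of 0.05, a background of 0%, with 502 genes and 0 members at an unadjusted p under 0.05; members' adjusted p-values ran from 0.903 to 0.992. DESeq2 called 58 genes (0.428%) and 0 members, and 2 of 30 members had an unadjusted p under 0.05, beside 923 of 13541 genes. A limma-voom fit called 0 genes (0%) and 0 members. The design leaves 2 residual degrees of freedom, and the fitted biological coefficient of variation was 38.6%. With the line as a block, it measures how the resistant-to-parental change varied from line to line, not how levels differed between lines. Because each line has 1 library per state, values within a line carry counting error only and no p. In a culture, a share of cells with the RNA and the amount of RNA per cell cannot be told apart.

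Most of the differences lay in HCC827. A member was counted within a line if it had at least 10 CPM in 1 of the 2 libraries and differed at least 2-fold with 1 CPM added to both. In HCC827, 5 of 28 members at that level were higher in the resistant library (SCD5, FADS3, DGAT2, PLIN2 and CPT1A), against 10.5% of all genes, and 9 were lower (FASN, SCD, FADS2, ELOVL6, SREBF1, ACSL1, ACSL5, LPIN1 and FABP5), against 7.65%. The shares of higher and lower members, 17.9% and 32.1%, were thus above those of all genes in this line. The members were chosen with earlier results of these data known, so these shares are a description and not a test. In PC9, 2 of 27 were higher (SCD and FADS2), against 2.42% of all genes, and 0 were lower, against 1.72%. In H1975, 0 of 25 were higher, against 1.76%, and 1 was lower (CPT1A), against 3.22%. The median log2 ratio of the 30 members was -0.59 in HCC827, 0.13 in PC9 and 0.08 in H1975, beside -0.02, 0.00 and 0.02 over all 13541 genes.

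**Figure D1:**
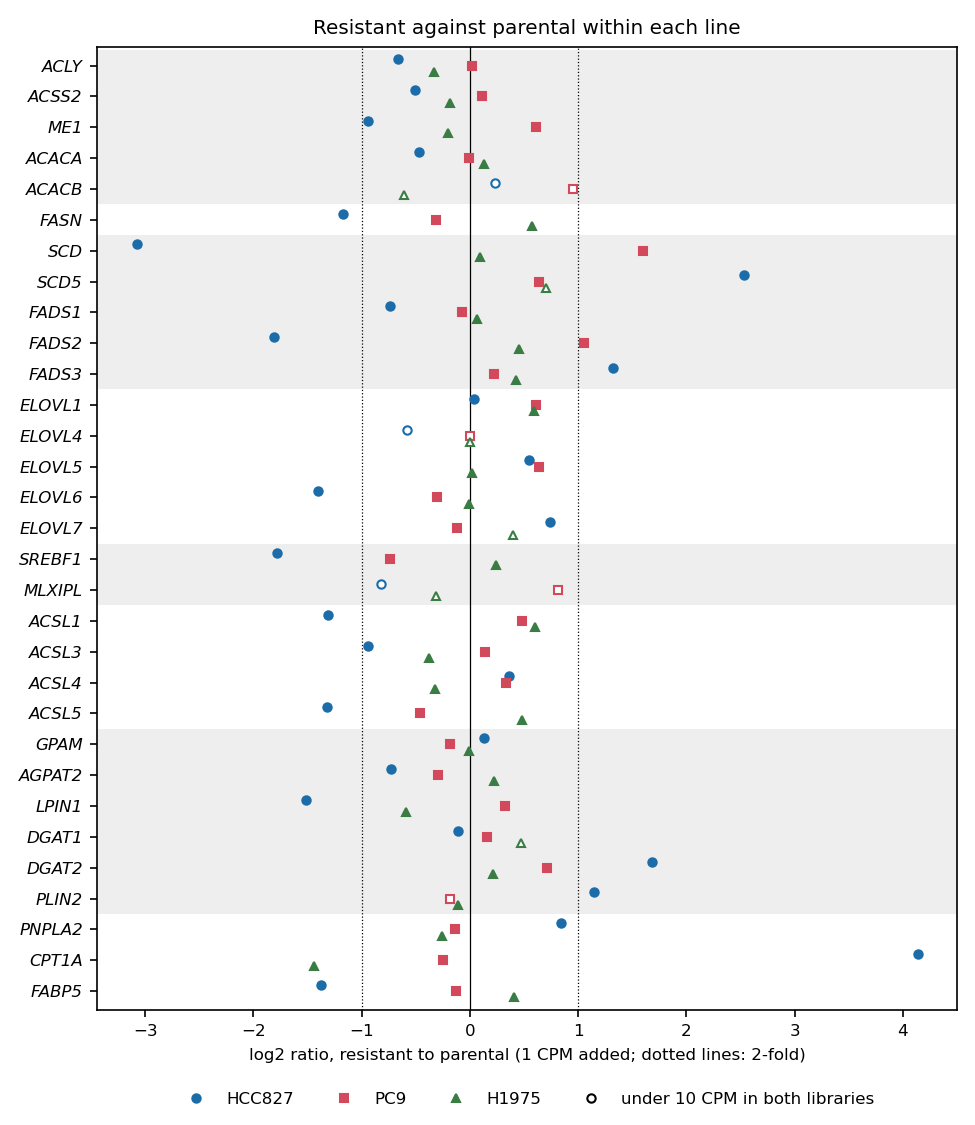
Log2 ratio of resistant to parental CPM (1 CPM added) for each of the 31 genes, 1 symbol per line, with no error bars because each state of a line is 1 library; grey and white bands separate the 8 roles and dotted lines mark 2-fold. HCC827 spans -3.08 to 4.14, while PC9 spans -0.74 to 1.60 and H1975 -1.44 to 0.70.

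For most members the parental lines differed from each other by more than resistant from parental. On the TPM scale the highest parental means were those of FABP5 (230 ± 63.7, SD over 3 lines), SCD (196 ± 240), ACLY (189 ± 87.3) and ELOVL1 (176 ± 29.7), whose spreads overlap, so these neighbours have no order beyond their spread. The lowest were MLXIPL (1.05 ± 0.355), ACACB (1.09 ± 0.659) and ELOVL4, which had 0 reads in PC9 and H1975. Among the 28 members with at least 10 CPM in a library, the median gap between the highest and the lowest parental line was 1.61 on the log2 scale of CPM with 1 added, beside 1.09 over 11275 such genes. The widest gaps were those of SCD (6.43), PLIN2 (5.45), CPT1A (4.51) and ELOVL7 (4.44). In 7 of the 28 members the largest ratio within any line exceeded the gap between the parental lines (ME1, FADS2, FADS3, ACSL1, LPIN1, PNPLA2 and FABP5), which is 25% beside 23.6% of all genes. The gap between lines was smaller among the resistant libraries than among the parental ones for 18 of 28 members (64.3%), beside 45.3% of all genes. In an alternative added after the data were seen it was 16 of 28 without HCC827, 17 without PC9 and 15 without H1975, beside 47.4%, 49.7% and 43.2% of all genes. For SCD it was 2.57 among the resistant libraries, for CPT1A 1.08, for SREBF1 1.02 against 2.87, and for FASN 0.84 against 2.05. Those 4 genes were thus closer together across the resistant sublines than across the parental lines, while ACSL5 (1.65 and 3.46) and PLIN2 (5.45 and 6.40) were farther apart.

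**Figure D2:**
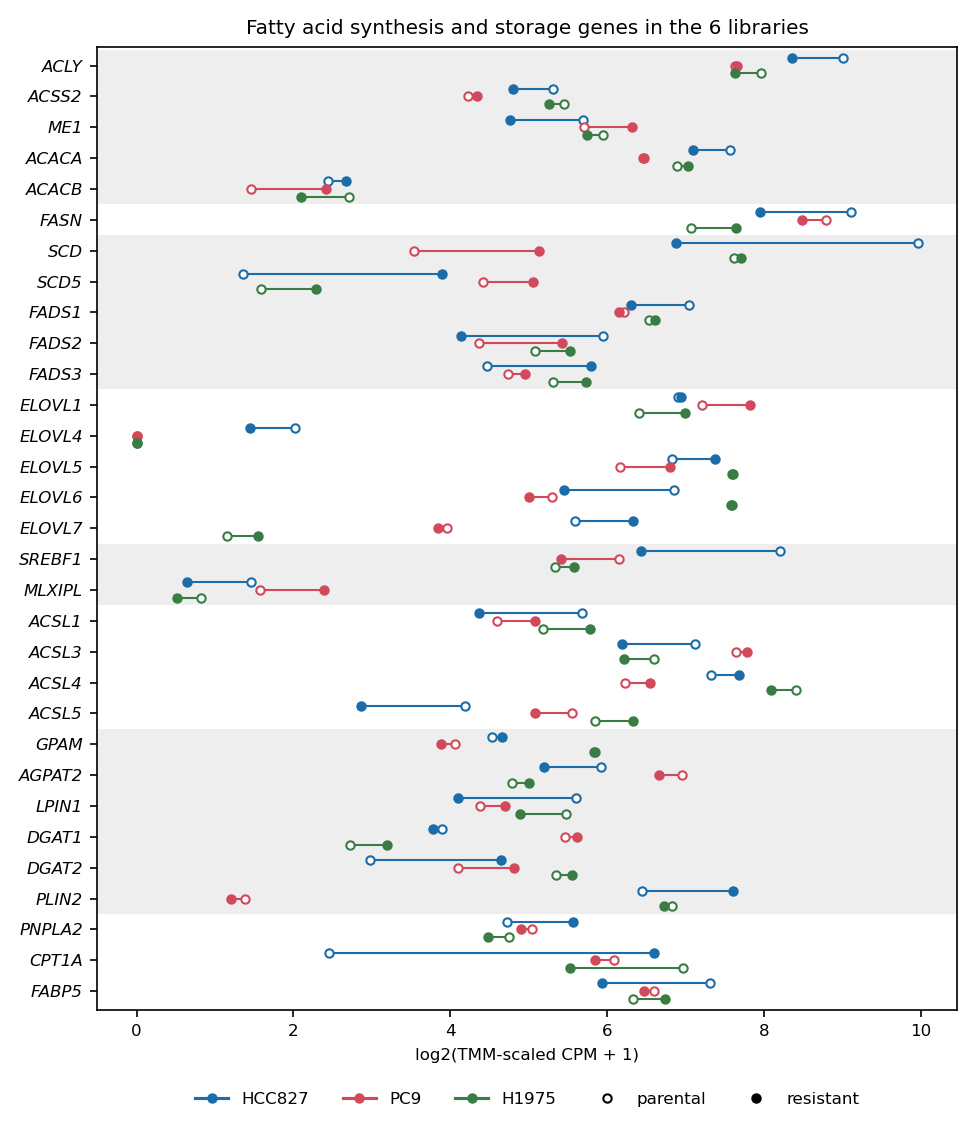
Level of each gene in each library as log2(TMM-scaled CPM + 1), with open circles for the parental and filled circles for the resistant library of a line, joined by a line; each circle is 1 library. SCD and CPT1A show the longest joins, both in HCC827, and ELOVL4 sits at 0 in PC9 and H1975.

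The genes that supply acetyl-CoA and malonyl-CoA stayed within 2-fold in every line with TMM scaling and 1 CPM added. ACLY, which makes cytosolic acetyl-CoA from citrate, was at 515 CPM in HCC827 and 325 in HCC827-GR, at 197 in PC9 and 200 in PC9-GR, and at 247 in H1975 and 197 in H1975-OR. It was lower in the resistant library of HCC827 and H1975 and level in PC9. ACSS2, which makes acetyl-CoA from acetate, was at 38.6 and 26.8 CPM in HCC827, 17.7 and 19.3 in PC9, and 42.6 and 37.4 in H1975. ME1, which makes NADPH for synthesis, was at 50.8 and 26.1 CPM in HCC827, 51.3 and 78.9 in PC9, and 60.6 and 52.7 in H1975. The ME1 log2 ratios of the gefitinib-selected lines, -0.94 and 0.61, thus had opposite signs. With scaling by library size alone the ME1 value in HCC827 was -1.03, past 2-fold. ACACA, the cytosolic acetyl-CoA carboxylase, was at 189 and 136 CPM in HCC827, 87.6 and 87.1 in PC9, and 118 and 130 in H1975. ACACB, whose product sits at the mitochondrion and guards CPT1A, was under 6 CPM in all libraries, with log2 ratios of 0.23, 0.95 and -0.61. The summed TPM of these 5 genes was 390 in HCC827 and 234 in HCC827-GR, 181 and 202 in PC9, and 309 and 245 in H1975.

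FASN, the synthase that makes palmitate, was lower in both gefitinib-selected sublines and higher in the osimertinib-selected one. It was at 553 CPM in HCC827 and 246 in HCC827-GR, at 441 in PC9 and 355 in PC9-GR, and at 133 in H1975 and 198 in H1975-OR. Only the HCC827 pair passed 2-fold, with a resistant-to-parental ratio of 0.444 (95% counting interval 0.432 to 0.457). The fitted log2 fold change over the lines was -0.30 ± 0.38 (SE, edgeR, adjusted p = 0.918), 0.12 without the HCC827 pair and -0.73 without the H1975 pair. FASN (hg38 chr17:82078333-82098332, minus strand) had the highest CPM of the members in parental PC9 and was below only SCD in parental HCC827. CPM is not scaled to gene length, and with TPM these ranks did not hold. In parental PC9 FASN (129 TPM) was below ELOVL1 (209), AGPAT2 (206) and FABP5 (188). In parental HCC827 FASN (159 TPM) was below SCD (465), FABP5 (303), ACLY (283) and ELOVL1 (166).

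Among the desaturases, SCD and its paralogue SCD5 went opposite ways in HCC827. Both enzymes put the first double bond into saturated chains; SCD is the form of most tissues and SCD5 is best known from brain and pancreas. SCD was at 996 CPM in HCC827 and 117 in HCC827-GR, at 10.6 in PC9 and 34.0 in PC9-GR, and at 195 in H1975 and 207 in H1975-OR. It was the most abundant member in parental HCC827 on both scales and among the lowest in parental PC9, and its resistant library was the lower one in HCC827, the higher one in PC9 and level in H1975, where the sign turned with TPM. The ratio was 0.117 in HCC827 (95% counting interval 0.113 to 0.122) and 3.22 in PC9 (2.77 to 3.76). The fitted log2 fold change over the lines was -0.34 ± 1.05 (SE, edgeR, adjusted p = 0.971), 0.86 without the HCC827 pair, -1.51 without PC9 and -0.71 without H1975.

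SCD5 was at 1.57 CPM in HCC827 (43 reads) and 13.8 in HCC827-GR (369 reads), at 20.4 in PC9 and 32.3 in PC9-GR, and at 1.99 in H1975 and 3.88 in H1975-OR. Every resistant library was above its parent, though the groups overlap because both PC9 libraries lie high. The ratio in HCC827 was 8.83 (95% counting interval 6.43 to 12.4), and the fitted log2 fold change was 1.54 ± 0.60 (SE, edgeR, adjusted p = 0.903), the smallest unadjusted p of the members at 0.0513. Without the HCC827 pair it was 0.80. On the TPM scale SCD exceeded SCD5 509 times in HCC827 and 6.76 times in HCC827-GR, and 78.4 and 42.8 times in H1975. In PC9 SCD5 was the higher of the pair in both states, with SCD-to-SCD5 ratios of 0.415 and 0.844. The share of SCD in the summed TPM of the 5 desaturases was 84.7% and 35.7% in HCC827, 6.68% and 15.2% in PC9, and 52.2% and 47.7% in H1975.

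The stretches before the start sites of both genes are printed because the pair had ratios of opposite sign in HCC827. They are the 250 bases 5′ of the RefSeq start (GRCh38.p14), 5′ to 3′ on the gene's strand. Capitals mark CCAAT or GGGCGG on either strand, so that a match on the other strand reads ATTGG or CCGCCC.
SCD promoter, chr10:100346983-100347232, plus strand: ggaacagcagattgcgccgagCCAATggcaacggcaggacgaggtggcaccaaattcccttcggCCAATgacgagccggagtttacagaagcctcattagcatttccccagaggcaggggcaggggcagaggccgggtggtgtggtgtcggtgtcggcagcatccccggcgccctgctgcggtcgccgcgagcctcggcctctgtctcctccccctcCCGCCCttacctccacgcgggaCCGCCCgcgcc
SCD5 promoter, chr4:82798797-82799046, minus strand: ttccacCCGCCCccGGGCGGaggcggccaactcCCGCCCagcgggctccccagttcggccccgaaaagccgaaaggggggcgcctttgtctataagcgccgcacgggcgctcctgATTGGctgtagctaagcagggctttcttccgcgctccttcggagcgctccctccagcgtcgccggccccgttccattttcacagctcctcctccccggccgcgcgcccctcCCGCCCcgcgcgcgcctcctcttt
SCD held 2 CCAAT and 2 GGGCGG matches and SCD5 held 1 and 4. Neither window, read over its full 300 bases, held the sterol regulatory element TCACNCCAC or the E-box CACGTG.

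The other desaturases had ratios of mixed sign. FADS2, the first desaturase of the path to long polyunsaturated chains, was at 60.6 CPM in HCC827 and 16.6 in HCC827-GR, at 19.6 in PC9 and 41.8 in PC9-GR, and at 32.8 in H1975 and 45.1 in H1975-OR. Like SCD it was lower in HCC827 and higher in PC9, with ratios of 0.274 (95% counting interval 0.246 to 0.304) and 2.13 (1.89 to 2.39). FADS3, a desaturase that acts on sphingoid bases, was at 21.1 and 54.2 CPM in HCC827, 25.6 and 29.9 in PC9, and 38.6 and 52.2 in H1975. Every resistant library was above its parent, opposite to FADS2 in HCC827, with a fitted log2 fold change of 0.67 ± 0.29 (SE, edgeR, adjusted p = 0.903), or 0.33 without the HCC827 pair. FADS1, which acts after FADS2, was at 131 and 77.9 CPM in HCC827, 73.1 and 69.8 in PC9, and 91.9 and 96.9 in H1975. Its value is uncertain, because 24.98% of its reads mapped uniquely. FADS1 and FADS2 overlap on opposite strands of chromosome 11, FEN1 lies within the deposited FADS2 span on the same strand, and whether counting used strand is not given in the sources used here.

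Among the elongases, ELOVL1 and ELOVL5 were level or higher with resistance, under 2-fold in every line, and ELOVL6 was at least 2-fold lower in HCC827. ELOVL1, which makes very long saturated chains, was at 118 and 122 CPM in HCC827, 147 and 225 in PC9, and 83.6 and 126 in H1975. ELOVL5, which extends polyunsaturated chains, was at 113 and 165 CPM in HCC827, 70.5 and 111 in PC9, and 191 and 193 in H1975. The near-level pairs, ELOVL1 in HCC827 and ELOVL5 in H1975, turned to the lower side with scaling by library size alone or with TPM. ELOVL6, which takes palmitate to stearate and so feeds SCD, was at 114 and 42.8 CPM in HCC827, 38.3 and 30.99 in PC9, and 192 and 190 in H1975. It was the one member below its parent in all 3 lines, by a ratio of 0.375 in HCC827 (95% counting interval 0.350 to 0.401) and by 0.01 on the log2 scale in H1975. The fitted log2 fold changes were 0.42 ± 0.20 for ELOVL1, 0.41 ± 0.21 for ELOVL5 and -0.57 ± 0.32 for ELOVL6 (SE, edgeR, adjusted p = 0.903 for each). Without the HCC827 pair ELOVL6 was at -0.16, and without the H1975 pair ELOVL5 was at 0.62. ELOVL7, another elongase of saturated chains, was at 47.3 and 79.4 CPM in HCC827, 14.5 and 13.3 in PC9, and 1.23 and 1.94 in H1975. ELOVL4, known from retina and skin, had 84 reads in HCC827 and 46 in HCC827-GR and 0 in the other 4 libraries; it was the member that did not pass the filter.

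SREBF1, which encodes SREBP-1, was lower in both gefitinib-selected sublines. It was at 294 CPM in HCC827 and 85.1 in HCC827-GR, at 69.9 in PC9 and 41.5 in PC9-GR, and at 39.4 in H1975 and 46.7 in H1975-OR. Parental HCC827 stood far above the other 5 libraries, and HCC827-GR was the next highest. The ratio was 0.289 in HCC827 (95% counting interval 0.276 to 0.303) and 0.593 in PC9 (0.546 to 0.643). The fitted log2 fold change over the lines was -0.77 ± 0.42 (SE, edgeR, adjusted p = 0.903), with -0.26 without the HCC827 pair and -1.26 without the H1975 pair. MLXIPL, which encodes the carbohydrate-responsive activator ChREBP, was under 5 CPM in all 6 libraries. The SREBF1 promoter window is printed because SREBF1 heads the path and was lower in HCC827-GR, as several of the enzymes were. In PC9-GR SREBF1 was below its parental level, as FASN was (ratio 0.806), while SCD and FADS2 were above theirs (3.22 and 2.13). Whether SREBF1 set the level of any enzyme was not tested.
SREBF1 promoter, GRCh38.p14 chr17:17836987-17837236, minus strand: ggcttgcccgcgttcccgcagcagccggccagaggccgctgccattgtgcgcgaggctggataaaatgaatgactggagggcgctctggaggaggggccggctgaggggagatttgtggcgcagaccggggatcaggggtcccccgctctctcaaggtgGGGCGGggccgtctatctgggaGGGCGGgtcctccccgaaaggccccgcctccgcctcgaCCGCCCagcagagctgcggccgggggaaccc
It held 3 matches to GGGCGG, in capitals, and no match to the other motifs searched.

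The acyl-CoA synthetases split by line. ACSL1, which activates long chains for storage or oxidation, was at 50.2 and 19.7 CPM in HCC827, 23.1 and 32.7 in PC9, and 35.2 and 54.0 in H1975. ACSL5, a form at mitochondria and the endoplasmic reticulum, was at 17.3 and 6.30 CPM in HCC827, 45.7 and 32.9 in PC9, and 56.3 and 79.1 in H1975; 79.2% of its reads mapped uniquely. Both were at least 2-fold lower in HCC827-GR and were higher in H1975-OR than in H1975. ACSL3, the droplet-bound form, was at 138 and 71.9 CPM in HCC827, 198 and 219 in PC9, and 95.7 and 73.2 in H1975. ACSL4, which prefers arachidonate and primes membranes for ferroptosis, was at 159 and 204 CPM in HCC827, 73.6 and 92.8 in PC9, and 337 and 271 in H1975. ACSL4 was the one synthetase higher in HCC827-GR than in its parent.

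In glycerolipid assembly, DGAT2 was above its parental level in every subline, and the members of the steps before it were not. DGAT2, which adds the last chain of triacylglycerol, was at 6.85 CPM in HCC827 and 24.1 in HCC827-GR, at 16.2 in PC9 and 27.1 in PC9-GR, and at 39.6 in H1975 and 46.1 in H1975-OR. The order of the lines was the same in both states, and the parental and resistant values overlap. The ratio was 3.52 in HCC827 (95% counting interval 2.99 to 4.16), and the fitted log2 fold change was 0.91 ± 0.37 (SE, edgeR, adjusted p = 0.903), or 0.47 without the HCC827 pair. DGAT1, the other enzyme of that step, was at 13.8 and 12.7 CPM in HCC827, 43.04 and 48.2 in PC9, and 5.60 and 8.14 in H1975. GPAM, the mitochondrial acyltransferase of the first step, stayed within 0.18 on the log2 scale in every line. AGPAT2, the enzyme of the second step, was at 59.4 and 35.5 CPM in HCC827, 123 and 99.9 in PC9, and 26.7 and 31.1 in H1975. LPIN1, the phosphatase that makes diacylglycerol, was at 47.5 and 16.1 CPM in HCC827, 19.7 and 24.9 in PC9, and 43.3 and 28.5 in H1975, so it was lower in HCC827-GR where DGAT2 was higher.

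PLIN2, the coat protein of lipid droplets in most cells, was at 86.1 CPM in HCC827 and 193 in HCC827-GR, at 1.60 in PC9 and 1.30 in PC9-GR, and at 113 in H1975 and 104 in H1975-OR. PC9 thus had almost none of it in either state, at 33 and 31 reads, while HCC827-GR had the most. The ratio in HCC827 was 2.24 (95% counting interval 2.13 to 2.35).

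CPT1A, the gate to mitochondrial oxidation, gave the largest ratio among the members, and its direction differed by line. It was at 4.48 CPM in HCC827 (123 reads) and 95.9 in HCC827-GR (2558 reads), at 67.0 in PC9 and 56.3 in PC9-GR, and at 124 in H1975 and 44.9 in H1975-OR. Parental HCC827 was the low library, and the 3 resistant libraries lay between 44.9 and 95.9 CPM. The ratio was 21.4 in HCC827 (95% counting interval 17.8 to 25.8) and 0.362 in H1975 (0.339 to 0.386). The fitted log2 fold change was 0.54 ± 1.35 (SE, edgeR, adjusted p = 0.964), -0.87 without the HCC827 pair, 1.43 without PC9 and 2.07 without H1975. On the TPM scale FASN exceeded CPT1A 89.2 times in HCC827 and 1.85 times in HCC827-GR, 4.75 and 4.56 times in PC9, and 0.776 and 3.19 times in H1975. The ratio of the synthase to the oxidation gate was therefore lower with resistance in HCC827, level in PC9 and higher in H1975. The window before the start of CPT1A is printed for comparison with those above.
CPT1A promoter, GRCh38.p14 chr11:68844278-68844527, minus strand: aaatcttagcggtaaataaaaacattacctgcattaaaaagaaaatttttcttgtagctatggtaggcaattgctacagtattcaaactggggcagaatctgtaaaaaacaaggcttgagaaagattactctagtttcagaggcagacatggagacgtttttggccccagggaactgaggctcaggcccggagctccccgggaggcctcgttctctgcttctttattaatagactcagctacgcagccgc
It held none of the 4 motifs searched, and so has no capitals.

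PNPLA2, the lipase that starts the breakdown of stored triacylglycerol, was at 25.4 and 46.3 CPM in HCC827, 32.0 and 28.9 in PC9, and 25.8 and 21.4 in H1975. FABP5, which carries fatty acids within the cell, was at 157 and 59.9 CPM in HCC827, 95.9 and 87.8 in PC9, and 79.4 and 106 in H1975. The level of FABP5 is uncertain, because 18.2% of its reads mapped uniquely and the gene has near-identical copies.

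**Figure D3:**
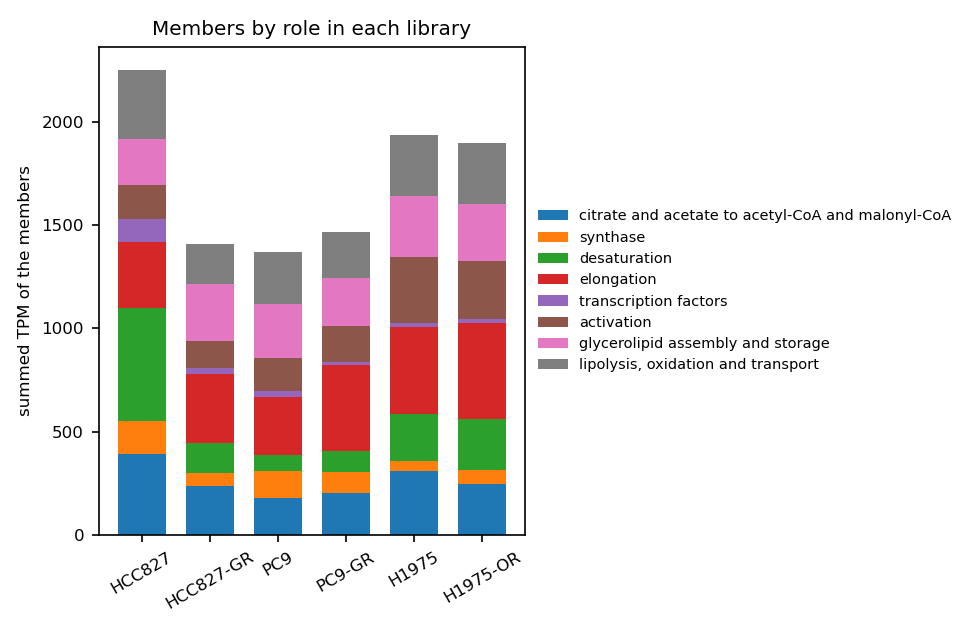
Summed TPM of the members by role in each library, stacked from 0, with no error bars because each bar is 1 library. The desaturation block is 549 TPM in HCC827 and 145 in HCC827-GR, while elongation is 316 and 331.

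By role, the summed TPM of desaturation was 549 in HCC827 and 145 in HCC827-GR, 75.0 and 104 in PC9, and 226 and 245 in H1975. Elongation was at 316 and 331 TPM in HCC827, 282 and 412 in PC9, and 420 and 466 in H1975. The elongation sum was thus not lower in HCC827-GR, unlike FASN and the sums of the acetyl-CoA genes and the desaturases. Single members went against these sums. In HCC827-GR ELOVL6 was lower and the desaturases SCD5 and FADS3 were higher, while SCD was at 465 and 51.6 TPM in HCC827 and HCC827-GR. Glycerolipid assembly and storage was at 223 and 277 TPM in HCC827, 264 and 236 in PC9, and 293 and 275 in H1975.

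Of the 30 members tested, 5 were on the higher side in all 3 lines (SCD5, FADS3, ELOVL1, ELOVL5 and DGAT2), which is 16.7% beside 14.3% of all genes. On the lower side in all 3 lines was 1 member (ELOVL6), which is 3.33% beside 13.5% of all genes. The first share is near the background, and these 6 genes differ in size: SCD5, FADS3 and DGAT2 passed 2-fold in HCC827, while ELOVL1 and ELOVL5 did not in any line. Under scaling by library size alone the counts were 3 and 1, and with TPM 3 and 3. In an alternative added after the data were seen, the counts were 9 and 5 in PC9 and H1975 without HCC827, 6 and 7 without PC9, and 7 and 8 without H1975. The shares of all genes were not computed for these scalings or with a line left out. These counts therefore have no background beside them, and more genes share a side when fewer lines are compared.

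The change in the gefitinib-selected lines was also compared with that in H1975, a comparison in which drug, EGFR mutation and line cannot be told apart and which leaves 1 residual degree of freedom. edgeR called 0 of 13541 genes (0%), with 434 genes and 0 members at an unadjusted p under 0.05. DESeq2 called 77 genes (0.569%) and 0 members, and 2 members had an unadjusted p under 0.05, beside 495 of 13541 genes. The limma-voom fit called 0 genes (0%) and 0 members, and 1 member had such a p, beside 494 genes. The smallest member p in edgeR was that of SREBF1 (0.0594, adjusted p = 1.00), whose log2 fold change in the gefitinib-selected lines minus that in H1975 was -1.52. The differences were -1.31 for FASN, -0.81 for SCD and 3.51 for CPT1A on the same scale. The gefitinib term averages HCC827 and PC9. These lines lay on opposite sides for SCD, FADS2, ME1 and CPT1A, and for further members, among them ACSL1, ACSL3, LPIN1, MLXIPL, PLIN2 and PNPLA2.

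Intron reads, which come mostly from RNA not yet spliced, gave a second readout that the choice of members did not use. Of the 17 pairs of a member and a line at 2-fold or more in exon reads, 15 had an intron ratio on the same side with a 95% counting interval that left out 0 on the log2 scale; 1 (DGAT2 in HCC827) had an interval that included 0, and 1 (SCD in PC9) had under 20 intron reads. Over all genes at 2-fold or more within a line with at least 20 intron reads, 85% of 2513 pairs met the same rule. In HCC827 the intron log2 ratio of SCD was -3.27 (95% counting interval -4.18 to -2.48, 139 and 14 reads), beside -3.08 in exons. That of SREBF1 was -2.32 (-2.54 to -2.10, 1087 and 212 reads), beside -1.78, and that of FASN was -1.89 (-2.33 to -1.48), beside -1.17. In these 3 genes the lower level in HCC827-GR was thus also present in intron reads. SCD5 stood at 2.56 in introns (1.62 to 3.63, 11 and 63 reads) and 2.53 in exons. The exon value has 1 CPM added and was 2.79 with 0.5 CPM added, while the intron value has none added. The closeness of the SCD5 values thus depends on the added CPM.

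CPT1A in HCC827 was one of the pairs whose readouts were farthest apart. Its intron log2 ratio in HCC827 was 1.64 (95% counting interval 1.01 to 2.31, 28 and 85 reads), beside 4.14 in exons. MLXIPL in HCC827 was at -3.42 in introns (-6.55 to -1.39, 22 and 2 reads) and -0.82 in exons, on few reads. The exon values have 1 CPM added and the intron values have none, which narrows the exon ratios of genes at low level. With 0.5 CPM added, the exon values in HCC827 were -1.08 for MLXIPL and 4.27 for CPT1A. With 5 CPM added they were -0.28 for MLXIPL and 3.41 for CPT1A. The exon value of CPT1A in HCC827 thus lay above its intron interval with 0.5, 1 or 5 CPM added. The size of each gap depends on the added CPM, so the gaps of these genes are not comparable in size. In H1975 the 2 readouts of CPT1A were close, at -1.26 (-1.69 to -0.83) and -1.44. Over all 84 member-line pairs with at least 20 intron reads, 46 lay on the exon side with an interval that left out 0. A further 36 had an interval that included 0, and 2 lay on the other side (ELOVL1 in HCC827 and ACSL3 in PC9). The share of all genes was not computed for these counts. The 46 include pairs with almost level exon reads, such as ACACA (-0.01) and FADS1 (-0.07) in PC9. Over all genes the median intron log2 ratio was -0.11 in HCC827, -0.33 in PC9 and 0.10 in H1975, so intron ratios in PC9 run low as a whole.

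**Figure D4:**
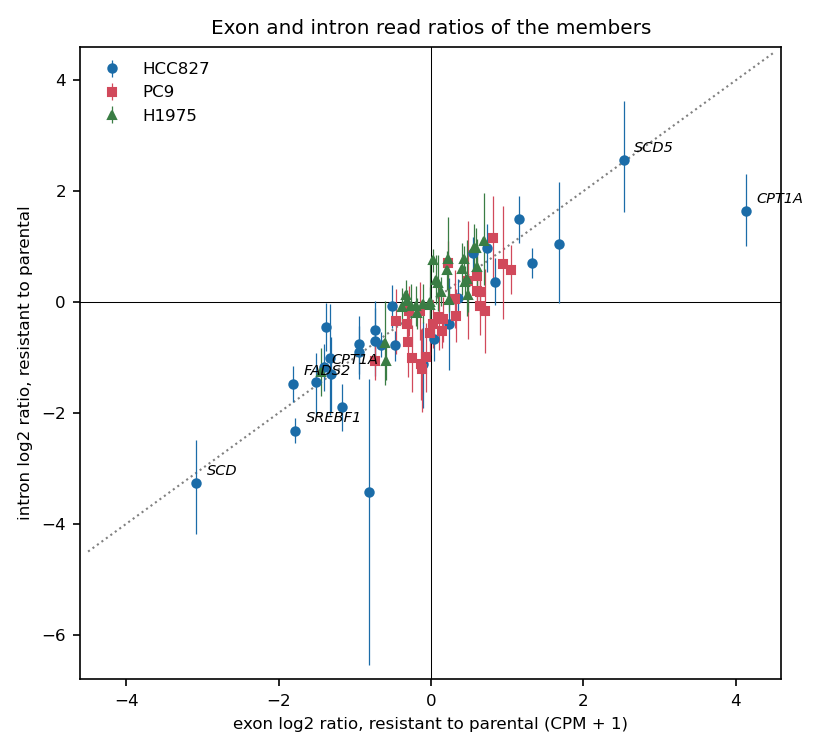
Intron log2 ratio (resistant to parental, with its 95% counting interval) against exon log2 ratio for the member-line pairs with at least 20 intron reads; the dotted line marks equal ratios, and each symbol is 1 gene in 1 line. SCD and SCD5 in HCC827 sit near the dotted line, and CPT1A in HCC827 sits well below it at 1.64 against 4.14. Exon ratios have 1 CPM added and intron ratios have none. The place of low-level genes such as SCD5 beside the line therefore depends on the added CPM.

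Promoter windows of 300 bases (250 before and 50 after the start, RefSeq, GRCh38.p14) were found for 27 of the 31 members, 40 windows in all; FASN, DGAT1, DGAT2 and FABP5 had no entry. Motifs were searched on both strands, and overlapping matches were each counted. The sterol regulatory element TCACNCCAC was in 2 windows (5%; ACSL1 and PNPLA2), beside 1.13% of 35116 windows of all genes. The E-box CACGTG was in 3 windows (7.5%; ELOVL4, ELOVL5 and PLIN2), beside 7.26%. CCAAT was in 16 windows (40%), beside 34.6%, and GGGCGG in 29 (72.5%), beside 45%. These matches describe the letters of the windows. Of the 9 members at least 2-fold lower in HCC827-GR, ACSL1 had a TCACNCCAC match, in 1 of its windows, and none with an entry had the E-box; FASN and FABP5 had no entry.

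The regulators around SREBF1 were read from a further list of 19 genes, of which 17 passed the filter, edgeR called 0, and 2 lay higher and 3 lower in all 3 lines, beside 14.3% and 13.5% of all genes. Its median log2 ratio was -0.13 in HCC827, -0.03 in PC9 and 0.05 in H1975. INSIG1, an SREBP target whose product holds SREBP in the endoplasmic reticulum, was at 144 and 15.8 CPM in HCC827, 4.41 and 7.93 in PC9, and 32.5 and 25.2 in H1975. Its pattern over HCC827 and PC9 ran with that of SCD. SREBF2, the paralogue that drives cholesterol synthesis, was at 117 and 74.8 CPM in HCC827, 105 and 195 in PC9, and 74.1 and 91.2 in H1975. PPARA, a nuclear receptor that drives CPT1A and oxidation genes, was at 10.4 and 33.6 CPM in HCC827, 23.0 and 33.0 in PC9, and 17.1 and 20.2 in H1975. PPARG, the receptor of fat storage, was at 40.8 and 22.8 CPM in HCC827, 114 and 92.3 in PC9, and 33.2 and 19.2 in H1975. PPARA, with NR1H2 (LXR beta), was thus higher and PPARG, with PRKAA1 (an AMPK subunit) by a small margin, lower in each resistant library, none past the test (edgeR, adjusted p = 0.903 for PPARA, NR1H2 and PPARG and 0.926 for PRKAA1); the sign of NR1H2 in H1975 (0.08) turned with TPM. MLX, the partner of ChREBP, was also on the lower side (-0.82, -0.06 and -0.35); MLX, ME2, IDH1, TKT, ELOVL2, GPAT4, ECI2 and ACOT2 were outside the rule for named genes and are given after their values were seen.

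In the supply of acetyl-CoA and NADPH, 11 of 12 genes passed the filter, edgeR called 0, and 0 lay higher and 5 lower in all 3 lines (beside 14.3% and 13.5% of all genes, as for each list that follows), with medians of -0.37, -0.18 and -0.17 in HCC827, PC9 and H1975. ACSS1, the mitochondrial acetyl-CoA synthetase, was at 3.32 and 1.95 CPM in HCC827, 8.24 and 4.95 in PC9, and 10.2 and 0.887 in H1975. MLYCD, which breaks malonyl-CoA down, had log2 ratios of -0.37, -0.51 and -0.25, with 24.0% of reads unique, and ME2, IDH1 (-2.50 in HCC827) and TKT completed the 5. The elongation and mitochondrial synthesis list passed the filter with 11 of 11 genes, of which edgeR called 0 and 1 lay higher (ELOVL2; 0.17, 0.58 and 0.14) and 1 lower (TECR, the last enzyme of the elongation cycle; -0.39, -0.32 and -0.08), with medians of 0.07, -0.02 and -0.06. For activation and uptake, 11 of 19 passed, edgeR called 0, and 0 lay higher and 1 lower (SLC27A2, a fatty acid transporter; 15.7 and 1.57 CPM in HCC827, 20.4 and 8.72 in PC9, 14.2 and 13.9 in H1975), with medians of -0.38, 0.06 and 0.23. CD36 and LPL, which take fatty acids up from outside, were at most 0.263 and 0.629 CPM.

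In glycerolipid assembly beyond the members, 11 of 15 genes passed, edgeR called 0, and 3 lay higher and 0 lower in all 3 lines (14.3% and 13.5% of all genes), with medians of 0.22, 0.34 and 0.07. AGPAT4, an acyltransferase of the second step, was at 9.29 and 43.8 CPM in HCC827, 0.0485 and 0.587 in PC9 (1 and 14 reads), and 27.5 and 35.2 in H1975. AGPAT1 had log2 ratios of 0.68, 0.38 and 0.07, the last turning with TPM or unique reads, and GPAT4 completed the 3. For droplets and lipolysis, 12 of 18 passed, edgeR called 0, and 0 lay higher and 1 lower (LDAH; -0.13, -0.17 and -0.08), with medians of 0.15, 0.14 and -0.25; HILPDA, an inhibitor of PNPLA2, had log2 ratios of -0.49, -0.18 and 0.35. For fatty acid oxidation, 29 of 30 passed, edgeR called 0, and 4 lay higher and 2 lower, with medians of 0.03, -0.15 and 0.02. ACAD9 (0.25, 0.31 and 0.30) and ACOT7 (0.29, 0.43 and 0.27) were higher, completed by ECI2 and ACOT2, and ECHS1 (-0.34, -0.15 and -0.01) and HSD17B4 (-0.27, -0.48 and -0.07) lower, in the same order of lines; ECHS1 in H1975 turned with unique reads. Beside the HCC827 log2 ratio of CPT1A, 4.14, the median of the other oxidation genes in that line was 0.03.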

How the data were processed

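Per the labels' protocols, RNA extracted with GENEzol went into stranded TruSeq mRNA libraries. Trimmomatic, Bowtie2 and hg38 are named in the submitters' processing notes. For the counting tool, its strand setting and its treatment of multiply mapping reads, nothing is stated (not given in the sources used here). Each file the authors deposited holds read counts (total exon, uniquely mapping exon and intron reads, per the file headers) and TPM. The members and all lists were chosen with earlier results of these data known. Total exon reads were scaled by TMM and tested with edgeR 4.0.16 (R 4.3.3; filterByExpr, minimum count 10 and minimum total 15; line as a block because the labels name it; two-sided, Benjamini-Hochberg over 13541 genes, threshold 0.05). Same-line libraries deviated together (r = 0.606 for HCC827, 0.841 for PC9 and 0.809 for H1975 across genes). Alternatives were DESeq2 1.42.0, limma-voom 3.58.1, other scalings, filters and unique reads. Where a gene had 0 reads, the level allowed is that of 3 counts (0.0985 to 0.145 CPM by library). Intervals are 95% exact binomial (Clopper-Pearson) and cover counting error only. All 31 members are reported; from each further list up to 2 genes per direction with at least 10 CPM in a library were named by the size of their smallest log2 ratio over the lines, with INSIG1, SREBF2, PPARG, CD36, LPL and HILPDA always named. Nothing in the labels says that libraries of a group are separate cultures beyond the separate lines. The p-values thus measure the spread of the resistant-to-parental change between these lines. Scripts were tested on simulated data.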

Additional observations from a re-analysis of the deposited data

How the results depend on the processing

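The number of members called was 0 under each of the 11 alternatives to the fit over the lines. The genes called went from 0 to 58 with DESeq2, and to 77 for the difference between drugs. Without the replicate block for the line, 0 genes were called, with 47 at an unadjusted p under 0.05. Leaving out 1 pair at a time, the fitted log2 fold change ranged from -1.51 to 0.86 for SCD, from -0.87 to 2.07 for CPT1A and from -0.73 to 0.12 for FASN; the sign turned without the HCC827 pair, at 0.86, -0.87 and 0.12. Of the members at 2-fold or more, the 5 higher in HCC827 were 3 at a minimum of 50 CPM. The 2 higher in PC9 were 1 with TPM, 1 with 5 CPM added and 0 at a minimum of 50 CPM. The 17 ratios at 2-fold or more gave 102 values under 6 alternatives, of which 0 turned sign and 28 moved beyond the counting interval, by at most 1.01 on the log2 scale. The depth limits SCD5, CPT1A and DGAT2 in parental HCC827, at 43, 123 and 188 reads, and intron reads throughout. With 1 library per state and line, no spread within a line could be measured.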
